A study of Mus musculus with 15 samples.

Results

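The endothelin system of the mouse left ventricle was followed through 5 genes among the 40174 gene symbols of the deposited count tables. They were the ligands Edn1 and Edn3, the receptors Ednra and Ednrb, and the converting enzyme Ece1. The genes were chosen by name from the system and by a measured value, the difference of Edn3 between the heterozygous groups of the lines, so that difference is described here and supports nothing. All 5 genes passed a filter on low counts that kept 17588 symbols, but Edn3 passed it through 6 libraries of G-line HET and WT alone.

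Left ventricles were taken from C57BL/6 mice aged 2 months, and their total RNA was sequenced to study how a pair of point mutations in Rbm20, the gene of a cardiac splicing regulator, act in remodelling of the heart. The groups were G-line HOM (Rbm20 S639G -/- in the labels), A-line HOM (Rbm20 S637A -/-), G-line HET (Rbm20 S639G +/-), A-line HET (Rbm20 S637A +/-) and WT, which carried neither allele. The labels name 3 libraries in each group, but A-line HOM replicate 2 was identical to WT replicate 2 in all 40174 symbols, and A-line HOM replicate 3 to WT replicate 3. These 2 libraries were used once, as WT, which left 13 libraries with a single one of A-line HOM; the labels do not settle this choice, and comparisons with WT or A-line HOM rest on it. The labels do not tie libraries to animals, and the p-values therefore rest on a spread between libraries that may be technical.

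Endothelins are short peptides cut from longer precursors, first by furin-like proteases and then by an endothelin-converting enzyme. They act on a pair of G protein-coupled receptors, of which the A type on smooth muscle and cardiac muscle drives contraction and growth, and the B type on endothelium drives the release of nitric oxide and the clearance of the peptide. Endothelin-1 is the main form made by endothelium, whereas endothelin-3 is best known for its work with the B receptor in neural crest cells that form enteric neurons and pigment cells.

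The ligands gave the largest changes of the 5 genes in G-line HOM against WT, and the stretches around their starts are shown here for that reason. Each runs 5′ to 3′ from 250 bases before to 50 bases after the annotated start in RefSeq of GRCm38.p6, an earlier build than the GRCm39 of the submitters' processing notes. The Edn1 stretch is chr13:42301226-42301525 and the Edn3 stretch chr2:174760369-174760668, both on the plus strand. Capitals mark matches to 4 motifs, searched on both strands: AGATAA (bound by GATA factors), TGANTCA and TGACTAA (a consensus and a variant of the AP-1 site), and ACGTG (the core of the hypoxia response element).
Edn1: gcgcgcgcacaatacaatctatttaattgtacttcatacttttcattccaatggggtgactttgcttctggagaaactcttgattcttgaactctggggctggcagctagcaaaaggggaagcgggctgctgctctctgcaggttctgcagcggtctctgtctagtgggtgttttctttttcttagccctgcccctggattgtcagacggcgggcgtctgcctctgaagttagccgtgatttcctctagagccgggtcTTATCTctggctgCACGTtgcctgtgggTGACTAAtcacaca
Edn3: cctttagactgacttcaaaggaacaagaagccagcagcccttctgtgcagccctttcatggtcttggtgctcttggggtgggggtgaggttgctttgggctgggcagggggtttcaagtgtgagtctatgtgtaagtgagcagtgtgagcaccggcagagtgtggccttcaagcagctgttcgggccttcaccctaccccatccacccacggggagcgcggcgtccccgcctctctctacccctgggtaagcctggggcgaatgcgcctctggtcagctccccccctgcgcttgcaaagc
The Edn1 stretch held AGATAA on the minus strand (TTATCT at positions 9 to 14 after the start), ACGTG on the minus strand (CACGT at 22 to 26) and TGACTAA on the plus strand (37 to 43), and none of the matches overlapped. Over 32851 promoter stretches of the same length, AGATAA was found in 11.2%, TGANTCA in 7.81%, TGACTAA in 2.35% and ACGTG in 19.6%. The Edn3 stretch and those of Ednra and Ednrb held none of these letters, and of the 4 annotated starts of Ece1 the third held ACGTG on both strands. A match is a run of letters and not a shown binding site, and the motifs were picked after the expression values had been seen.

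Depth differed between the lines. Total counts per library were 20324529 to 29436407 in G-line HOM, 17507813 in A-line HOM, 23714906 to 28121438 in G-line HET, 12959087 to 17448328 in A-line HET and 25279202 to 26549906 in WT. Rbm20 itself stood at 357 to 495.5 CPM (counts relative to library size, scaled with the TMM factors of edgeR), and as the alleles are point mutations its level does not check the labels. Cardiomyocyte markers summed to between 32232 and 47436 CPM in all libraries, so transcripts that define heart muscle were present in each. Markers of atrial muscle summed to 122 CPM in G-line HOM replicate 1, 536 CPM in A-line HET replicate 3 and 1201 CPM in WT replicate 2, and to between 12.3 and 23.0 CPM in the other 10 libraries. In bulk tissue, fewer cells of a type and less RNA per cell cannot be told apart.

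Edn1, which encodes the precursor of endothelin-1, was higher in G-line HOM than in any other group. It stood at 8.13, 9.38 and 6.57 CPM in the G-line HOM libraries, against 2.83, 3.29 and 3.46 CPM in WT. The lowest G-line HOM library lay above the highest library of every other group, which was 4.31 CPM in G-line HET. Libraries of G-line HOM and WT did not overlap in 41.7% of all genes. Edn1 was thus 2.51-fold higher in G-line HOM than in WT (8.03 ± 1.40 against 3.20 ± 0.32 CPM, SD, n = 3 each). The log2 fold change was 1.33 ± 0.23 (SE; 95% interval 0.79 to 1.86; edgeR quasi-likelihood test, Benjamini-Hochberg adjusted p = 0.000772 over 17588 genes). Leaving out any single library gave log2 fold changes of 1.20 to 1.45 and adjusted p-values of 0.000662 to 0.00587.

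The same gene separated G-line HOM from the heterozygotes of its own line. G-line HET libraries held 4.31, 2.50 and 3.59 CPM of Edn1, so the groups did not overlap, as was so for 35% of all genes. The log2 fold change of G-line HOM against G-line HET was 1.21 ± 0.23, or 2.31-fold higher (95% interval 0.68 to 1.73; adjusted p = 0.00489).

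No other group differed from WT in Edn1 past the threshold of an adjusted p of 0.05. Edn1 stood at 2.60, 3.97 and 4.10 CPM in A-line HET, which overlapped both G-line HET and WT. The log2 fold change against WT was 0.12 ± 0.23 in G-line HET (95% interval -0.42 to 0.66; adjusted p = 0.820) and 0.16 ± 0.24 in A-line HET (-0.39 to 0.72; adjusted p = 0.757). Intervals of this width leave room for moderate changes in either heterozygote.

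The single A-line HOM library had the lowest Edn1 of all, at 2.23 CPM. A lone library falls outside the range of a group of 3 for many genes, here for 67.8% of all genes against WT and 57.3% against G-line HOM. Its spread was assumed to be that of the other groups. Against WT the log2 fold change was -0.52 ± 0.36 (95% interval -1.36 to 0.32; adjusted p = 0.491). Against G-line HOM it was -1.85 ± 0.37 (3.60-fold lower; 95% interval -2.71 to -0.98), and it missed the threshold in edgeR's test with an adjusted p of 0.102. In DESeq2 the same difference had an adjusted p of 0.00126, and without G-line HOM replicate 3 edgeR gave -1.97 with an adjusted p of 0.0301. By mean CPM the order of Edn1 was G-line HOM, A-line HET, G-line HET, WT and A-line HOM, and of the neighbours in this order the first pair alone did not overlap among groups of 3 libraries.

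**Figure D1:**
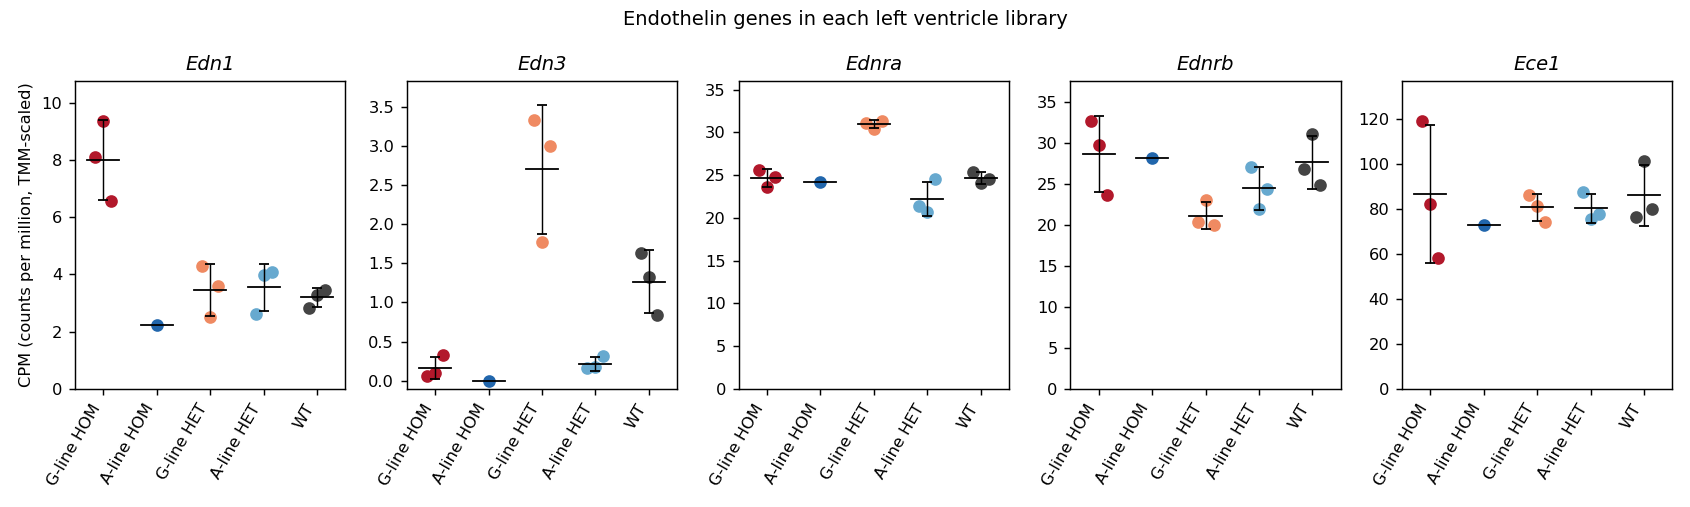
Level of each endothelin gene in CPM (TMM-scaled), 1 point per library, with the group mean as a line and the SD as a bar; A-line HOM is a single library. Edn1 lies between 6.57 and 9.38 CPM in G-line HOM and at or below 4.31 CPM elsewhere, and Edn3 lies at or below 0.329 CPM in G-line HOM, A-line HOM and A-line HET.

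Markers of cell types that could carry endothelin-1 were read beside Edn1. The 10 endothelial markers summed to 844 to 966 CPM in G-line HOM and 968 to 1080 CPM in WT. Of them 1, Tie1, was called, in the lower direction, against 13.3% of all genes. Cldn5 was at 8.01 CPM in G-line HOM and 4.48 CPM in WT (adjusted p = 0.111). The endocardial markers summed to 201 to 524 CPM in G-line HOM and 127 to 297 CPM in WT, and the smallest adjusted p of the 5 was that of Vwf (0.0633). Among the fibroblast markers 4 of 7 were called higher, against 13.1% of all genes, while Dpt gave -0.24 on the log2 scale (adjusted p = 0.616). They summed to 1592 to 2156 CPM in G-line HOM and 716 to 1220 CPM in WT. No marker of these lists was without a count in either group, and the part of endothelial, endocardial, fibroblast or cardiomyocyte transcripts (the last given below with Edn3) in the Edn1 result was not tested.

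Edn3, which encodes the precursor of endothelin-3, was scarce in every group and all but missing in G-line HOM and A-line HOM. Its counts were 2, 2 and 7 in the G-line HOM libraries (0.0626, 0.0942 and 0.329 CPM), against 38, 35 and 20 in WT (1.63, 1.32 and 0.834 CPM). At the WT mean level the G-line HOM libraries would have held 40.4, 26.8 and 26.9 counts. Edn3 was 8.06-fold lower in G-line HOM than in WT (0.162 ± 0.145 against 1.26 ± 0.40 CPM, SD, n = 3 each; log2 fold change -3.01 ± 0.53; 95% interval -4.24 to -1.78; adjusted p = 0.000858). Edn3 passed the filter only through G-line HET and WT, the groups in which it is high. The test was therefore also run with no filter on low counts, where the adjusted p was 5.91e-05. That run used the same counts and adds no separate support. The size rests in part on G-line HOM replicate 3, without which the log2 fold change was -3.96 (adjusted p = 0.000274).

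The A-line HOM library held 0 counts of Edn3, where 22.1 were due at the WT mean level. With a floor of 3 counts in that library (0.171 CPM), Edn3 was at least 7.37-fold lower in A-line HOM than the WT mean of 1.26 CPM. This bound rests on 1 library and takes the WT mean as exact, while the WT libraries ran from 0.834 to 1.63 CPM. The edgeR call of Edn3 in A-line HOM against WT belongs to the fitted value and not to this bound. It was lost with the shared libraries left out of the fit. The call was also lost when they were put under A-line HOM, to which they would bring 35 and 20 Edn3 counts. This change also gave an adjusted p of 0.0697 for G-line HOM against the single remaining WT library. Between A-line HOM and G-line HOM no fold is given, as the G-line HOM mean of 0.162 CPM lay under the floor of the A-line HOM library (adjusted p = 0.432).

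The heterozygous groups of the lines stood on opposite sides of WT in Edn3, the difference by which the genes were chosen. A-line HET libraries held 2, 3 and 6 counts (0.158, 0.175 and 0.319 CPM), against 88, 41 and 82 in G-line HET (3.33, 1.77 and 3.004 CPM). The groups did not overlap: each A-line HET library lay below each WT library, and each G-line HET library above it. Libraries did not overlap in 17.4% of all genes between A-line HET and G-line HET, in 26.1% between A-line HET and WT and in 31.5% between G-line HET and WT. At the WT mean level A-line HET would have held 16.0, 21.7 and 23.8 counts. The means were 0.217 ± 0.089 CPM in A-line HET and 2.701 ± 0.822 CPM in G-line HET (SD, n = 3 each), a log2 difference of -3.56. Against WT, the log2 difference was 1.10 in G-line HET and -2.47 in A-line HET, and that of G-line HOM against G-line HET was -4.11. As the rule used these groups, no test of them is given; over all genes, 5 of 17588 (0.0284%) were called in A-line HET against G-line HET, and nothing is read from that count.

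By level, Edn3 thus ran G-line HET, WT, A-line HET, G-line HOM and A-line HOM. The 3 lowest groups spanned 0 to 0.329 CPM, and A-line HET and G-line HOM overlapped.

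**Figure D2:**
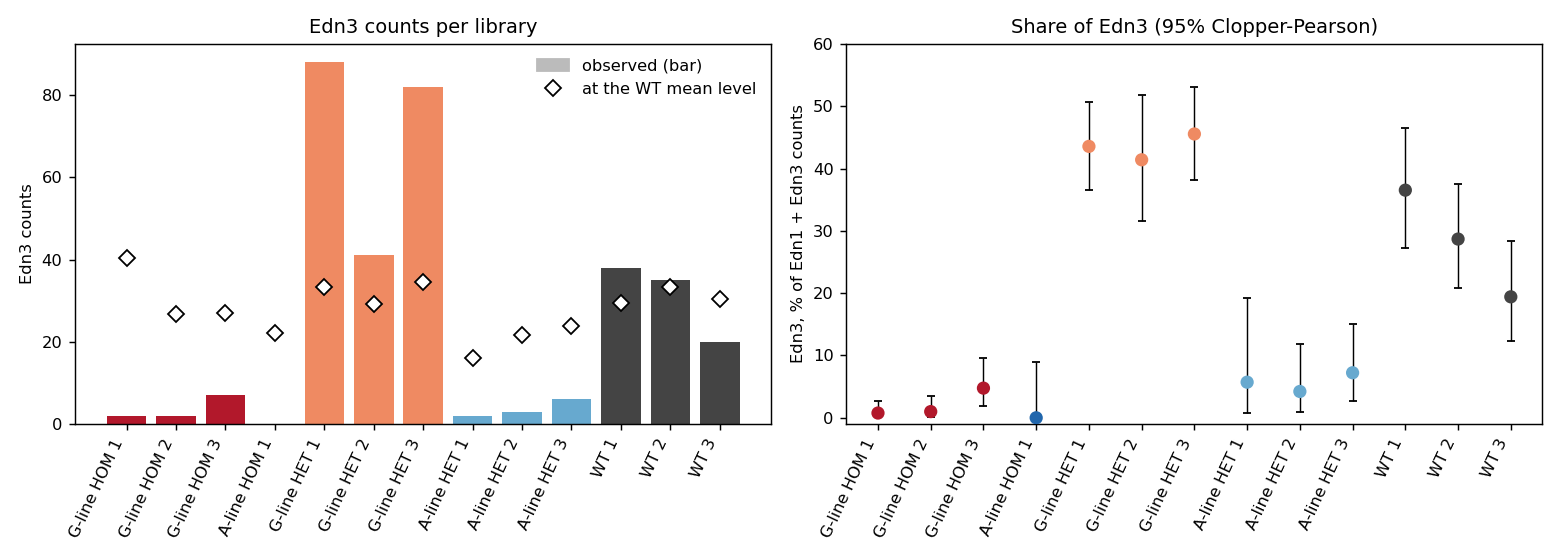
Left, Edn3 counts in each library (bars, coloured by group) and the counts that the WT mean level would give at that library's depth (diamonds). Right, Edn3 as a percentage of Edn1 and Edn3 counts together, with 95% Clopper-Pearson intervals for counting error only; the G-line HET shares lie at 41.4 to 45.6% and those of G-line HOM at 0.763 to 4.76%.

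The pair of ligands moved in opposite directions in G-line HOM, which shifted their mix of counts. Edn3 made up 0.763%, 0.995% and 4.76% of the Edn1 and Edn3 counts together in G-line HOM, against 36.5%, 28.7% and 19.4% in WT. The 95% Clopper-Pearson intervals, which cover counting error only, ran from 0.0926 to 9.57% over the G-line HOM libraries and from 12.3 to 46.6% over the WT libraries. In A-line HOM the share was 0 of 39 counts, which allows up to 7.69% at 3 counts. A-line HET gave 5.71%, 4.23% and 7.23% (intervals from 0.700 to 19.2%), and G-line HET gave 43.6%, 41.4% and 45.6% (31.6 to 53.1%). These are shares of counts and not of molecules, since the exons of Edn3 span 4113 bases and those of Edn1 2139 in the GENCODE annotation of GRCm38.

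Transcripts of neural crest derivatives, on which endothelin-3 is known to act, were few. Markers of Schwann cells and neural crest summed to 18.9 to 33.7 CPM in G-line HOM, 29.5 CPM in A-line HOM, 24.8 to 28.6 CPM in G-line HET, 19.4 to 39.1 CPM in A-line HET and 22.3 to 25.2 CPM in WT. The 3 of these markers past the filter had adjusted p-values of at least 0.179 in G-line HOM and at least 0.625 in A-line HOM against WT. Melanocyte markers summed to 2.58 to 9.38 CPM in G-line HOM, 1.99 to 2.27 CPM in G-line HET and 2.33 to 7.30 CPM in WT. Of the 2 melanocyte markers past the filter, Dct was called higher in G-line HOM than in G-line HET (4.56 ± 2.60 against 1.49 ± 0.32 CPM; log2 fold change 1.62; adjusted p = 0.0329), and against WT its adjusted p was 0.130. Pericyte markers summed to 911 to 1123 CPM in G-line HOM and 1503 to 1710 CPM in WT. Of these markers 4 of 7 were called lower and 1 higher, against 13.3% and 13.1% of all genes. Their sums were below WT in the other mutant groups too, at 1147 CPM in A-line HOM and 1086 to 1351 CPM in A-line HET. In G-line HET, the group with the most Edn3, they were 1187 to 1395 CPM. Abcc9 and Rgs5 were the most abundant markers of this list, so the sums follow them most. Abcc9 was at 289 CPM in G-line HOM, 392 CPM in A-line HOM, 370 CPM in G-line HET, 367 CPM in A-line HET and 690 CPM in WT. In G-line HOM against WT, Pdgfrb (log2 fold change 0.16) and Notch3 (-0.04) were not called, and Cspg4 (0.64) was the marker called higher. Cardiomyocyte markers summed to 32232 to 36778 CPM in G-line HOM and 43483 to 47436 CPM in WT, with 4 of 7 called lower, against 13.3% of all genes. They summed to 38781 CPM in A-line HOM, 40009 to 44963 CPM in G-line HET and 34922 to 43246 CPM in A-line HET. Myh6 was the most abundant of them, at 16847 CPM in G-line HOM and 24572 CPM in WT, so the sums follow it most. Tnnt2 (5021 CPM in G-line HOM and 4020 CPM in WT) and Actn2 (1300 and 1161 CPM) went the other way and were not called. The part of pericyte, cardiomyocyte or melanocyte transcripts in the Edn3 result was not tested. Without the 3 libraries with atrial transcripts, the log2 fold change of Edn3 in G-line HOM against WT was -2.50 (adjusted p = 0.0136).

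Ednra, the gene of the A receptor, kept to a narrow range, with G-line HET at its top. It stood at 25.6, 23.6 and 24.8 CPM in G-line HOM, 24.2 CPM in A-line HOM, 31.1, 30.4 and 31.3 CPM in G-line HET, 21.4, 20.7 and 24.5 CPM in A-line HET, and 25.4, 24.0 and 24.6 CPM in WT. The 3 G-line HET libraries lay above the other 10, which overlapped one another. Libraries did not overlap in 31.5% of all genes between G-line HET and WT and in 35% between G-line HOM and G-line HET. Ednra was 1.26-fold higher in G-line HET than in WT (30.9 ± 0.46 against 24.7 ± 0.68 CPM, SD, n = 3 each; log2 fold change 0.33 ± 0.09; 95% interval 0.12 to 0.53; adjusted p = 0.0368). This call was lost without any single one of the 6 libraries (0.31 to 0.35 on the log2 scale; adjusted p = 0.0690 to 0.121), with no filter on low counts, without the atrial libraries and under both other treatments of the shared libraries.

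Against G-line HET, Ednra was lower in G-line HOM by a like amount (log2 fold change -0.33 ± 0.09; 95% interval -0.53 to -0.12; adjusted p = 0.0252). That call did not hold without G-line HET replicate 1, 2 or 3 or without G-line HOM replicate 2, where the log2 fold change lay between -0.34 and -0.29 and the adjusted p reached 0.0993. Ednra was also lower in A-line HET than in G-line HET, by 0.48 on the log2 scale and with no overlap, a value of the contrast used to choose the genes. Libraries did not overlap in 17.4% of all genes in that contrast. The other comparisons gave intervals around 0: in G-line HOM against WT the log2 fold change was 0.00 ± 0.09 (95% interval -0.20 to 0.21; adjusted p = 0.991), in A-line HOM against WT -0.03 ± 0.13 (-0.32 to 0.26; adjusted p = 0.938), and in A-line HET against WT -0.15 ± 0.09 (-0.36 to 0.06; adjusted p = 0.364).

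Ednrb, the gene of the B receptor, showed the lowest levels where Ednra was highest. It stood at 32.6, 29.7 and 23.6 CPM in G-line HOM, 28.2 CPM in A-line HOM, 20.3, 23.0 and 20.0 CPM in G-line HET, 27.0, 21.9 and 24.4 CPM in A-line HET, and 26.8, 31.1 and 24.9 CPM in WT. G-line HET lay below G-line HOM and below WT without overlap, and it overlapped A-line HET. Libraries did not overlap in 35% of all genes for G-line HOM against G-line HET and in 31.5% for G-line HET against WT. Ednrb was 1.36-fold higher in G-line HOM than in G-line HET (28.6 ± 4.62 against 21.1 ± 1.68 CPM, SD, n = 3 each; log2 fold change 0.44 ± 0.13; 95% interval 0.14 to 0.74; adjusted p = 0.0350). The call was lost without G-line HET replicate 1, 2 or 3 or without G-line HOM replicate 1 or 2 (0.34 to 0.51 on the log2 scale; adjusted p up to 0.128), and without the atrial libraries (0.34; adjusted p = 0.120).

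Against WT, the log2 fold change of Ednrb in G-line HET was -0.39 ± 0.13 (95% interval -0.69 to -0.09) and missed the threshold (adjusted p = 0.0867). It was 0.06 ± 0.13 in G-line HOM (-0.24 to 0.35; adjusted p = 0.794), 0.03 ± 0.18 in A-line HOM (-0.40 to 0.46; adjusted p = 0.958) and -0.18 ± 0.13 in A-line HET (-0.48 to 0.12; adjusted p = 0.474). G-line HET also had 2 of 10 endothelial markers called lower than in WT, where 7.52% of all genes were called in either direction. Their summed levels were 759 to 978 CPM in G-line HET and 968 to 1080 CPM in WT. The part of endothelial transcripts in the Ednrb values was not tested.

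Set against each other, the receptors placed G-line HET apart from the remaining libraries. The ratio of Ednra to Ednrb counts was 1.53, 1.32 and 1.57 in G-line HET. It lay between 0.785 and 1.05 in G-line HOM, at 0.858 in A-line HOM, between 0.793 and 1.01 in A-line HET and between 0.773 and 0.987 in WT. The ratio was looked at after the values of both genes had been seen, so it is given without a test.

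**Figure D3:**
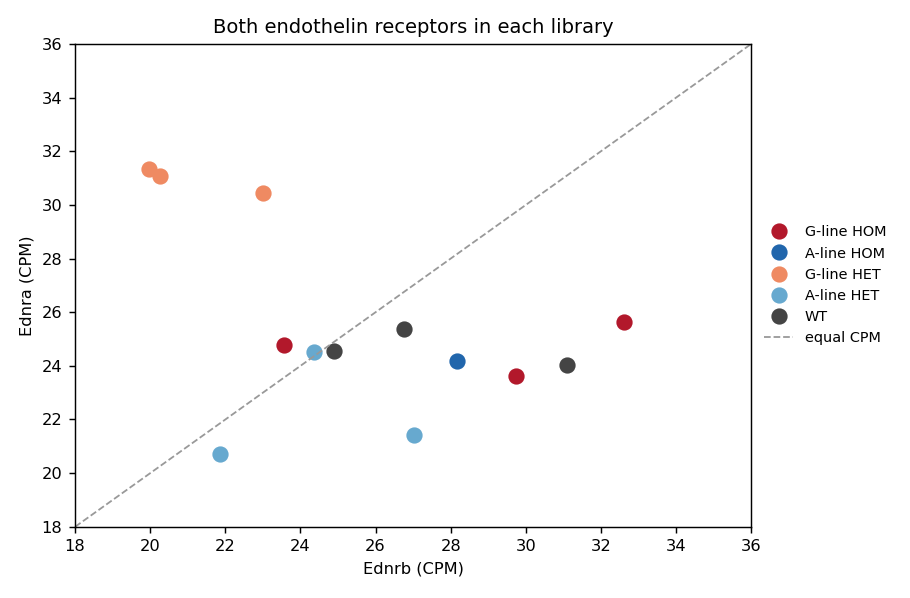
Ednra against Ednrb in CPM, 1 point per library, coloured by group; the dashed line marks equal CPM and both axes start at 18. The 3 G-line HET libraries sit at 30.4 to 31.3 CPM of Ednra and 20.0 to 23.0 CPM of Ednrb. They lie above the other 10 libraries in Ednra and overlap A-line HET in Ednrb.

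Ece1, which encodes the membrane protease that turns the endothelin precursors into active peptides, was called in no comparison. It stood at 119, 82.3 and 58.2 CPM in G-line HOM, 72.8 CPM in A-line HOM, 86.2, 81.4 and 74.1 CPM in G-line HET, 87.5, 75.3 and 77.5 CPM in A-line HET, and 76.5, 101 and 79.8 CPM in WT. G-line HOM held both the highest and the lowest library, with a coefficient of variation of 35.3% against 15.8% in WT. The highest libraries of these groups, G-line HOM replicate 1 and WT replicate 2, were among those with atrial transcripts. Their endocardial markers summed to 524 and 297 CPM. A-line HET replicate 3, also with atrial transcripts, held 77.5 CPM of Ece1 and an endocardial sum of 233 CPM. G-line HOM replicate 2, which is not among the libraries with atrial transcripts, held 82.3 CPM of Ece1 and an endocardial sum of 308 CPM. The part of such transcripts in the Ece1 values was not tested. The log2 fold change against WT was 0.01 ± 0.21 in G-line HOM (95% interval -0.47 to 0.49; adjusted p = 0.976), -0.24 ± 0.30 in A-line HOM (-0.93 to 0.45; adjusted p = 0.733), -0.09 ± 0.21 in G-line HET (-0.57 to 0.38; adjusted p = 0.846) and -0.10 ± 0.21 in A-line HET (-0.58 to 0.38; adjusted p = 0.835). Without G-line HOM replicate 1 the value in G-line HOM was -0.29 (adjusted p = 0.200). Intervals of this width do not show that Ece1 stayed the same.

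Per kilobase of annotated exon (GENCODE annotation of GRCm38), Ece1 was the most abundant of the 5 genes and Edn3 the least. Mean levels in G-line HOM were 16.3 CPM per kb for Ece1, 6.71 for Ednrb, 4.51 for Ednra, 3.75 for Edn1 and 0.0393 for Edn3. In WT they were 16.2 for Ece1, 6.47 for Ednrb, 4.50 for Ednra, 1.49 for Edn1 and 0.307 for Edn3. In G-line HET, Ednra at 5.65 stood above Ednrb at 4.94, and the Edn3 mean was 0.657. Taken over the longest transcript in place of all exons, Ednra came to 6.80 and Ednrb to 6.72 CPM per kb in WT, so the order of the receptors depends on the length used. The third ligand gene, Edn2, had 10 counts in all 13 libraries together and the second converting enzyme gene, Ece2, had 0, and neither was tested.

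**Figure D4:**
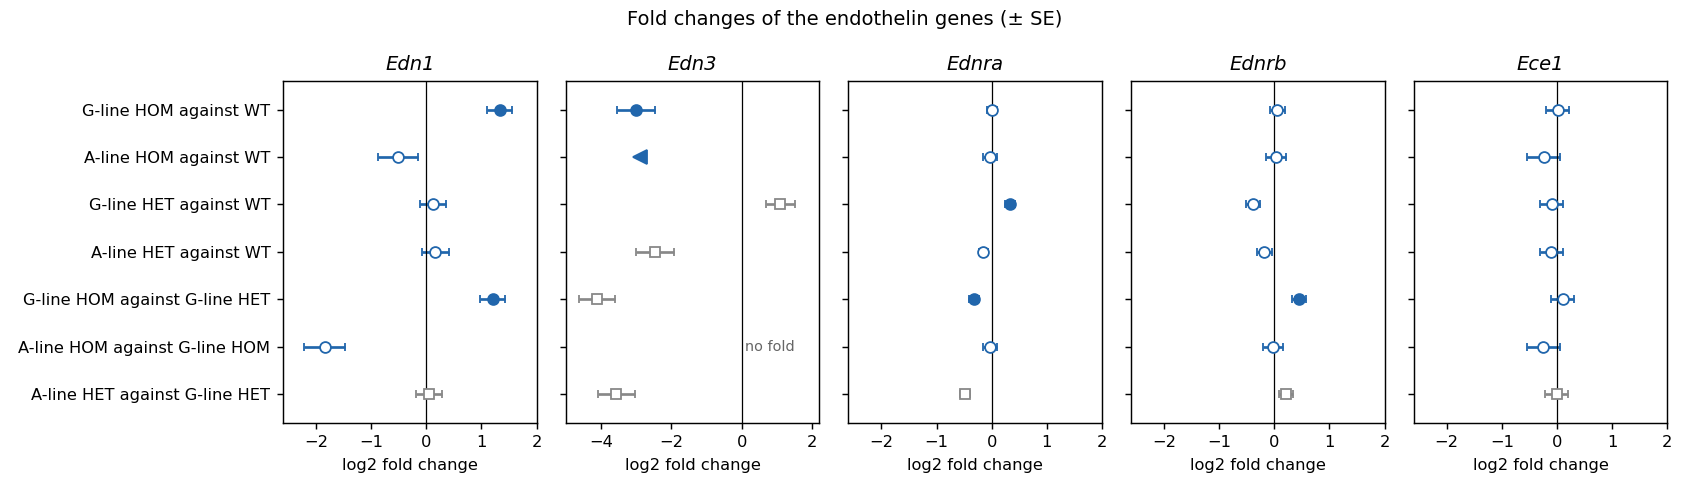
Log2 fold change ± SE of each endothelin gene in 7 comparisons. Filled circles have an edgeR adjusted p under 0.05 and open circles do not. Edn3 entered the test only through G-line HET and WT, the groups in which it is high. Grey squares are values of groups that the choice of genes used, without a test. The triangle is the least fall of Edn3 in A-line HOM from the WT mean that the floor of 3 counts allows. Filled points are Edn1 in G-line HOM against WT (1.33) and against G-line HET (1.21), Edn3 in G-line HOM against WT (-3.01), Ednra in G-line HET against WT (0.33) and in G-line HOM against G-line HET (-0.33), and Ednrb in G-line HOM against G-line HET (0.44).

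These calls stand against large backgrounds. In G-line HOM against WT Edn1 and Edn3 were called, while 26.4% of all genes tested were (4640 of 17588; 13.1% higher and 13.3% lower). In A-line HOM against WT Edn3 was called, against 4.68% of all genes. As Edn3 entered the test only through groups in which it is high, nothing is read from these counts. In G-line HET against WT 1 of the 4 genes open to a test was called, against 7.52% of all genes, and in A-line HET against WT 0 of 4 by edgeR or DESeq2 and with an unadjusted p of at least 0.119, against 7.96%. In G-line HOM against G-line HET 3 of 4 were called, against 14.6%. In A-line HOM against G-line HOM 0 of 5 were called by edgeR, 1 had an unadjusted p under 0.05, 1 was called by DESeq2, and 0.0398% of all genes were called by edgeR. The median log2 fold change over all genes lay between -0.01 and 0.04 in the 7 comparisons.

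Other genes around the endothelin system were called in both directions in G-line HOM, though most were not called. Of 67 further genes in 4 lists, which cover processing, receptor regulation, effectors and transcription factors, 64 passed the filter. In G-line HOM against WT 14 were called higher, 7 lower and 43 not at all, with a median log2 fold change of 0.07 beside 0.01 over all genes, where 26.4% of all genes were called. With the shared libraries counted as A-line HOM 7 were called.

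Among 15 genes of G proteins and receptor regulators, 6 were higher and 3 lower in G-line HOM than in WT. The share over all genes was 26.4%. Grk5, a kinase that shuts off active G protein-coupled receptors, was at 143 ± 14.1 CPM in G-line HOM and 41.1 ± 5.31 CPM in WT (SD, n = 3 each; log2 fold change 1.80 ± 0.19; adjusted p = 6.42e-05). Gna13, the gene of a G protein alpha subunit, was at 90.2 ± 8.26 CPM in G-line HOM and 53.5 ± 3.55 CPM in WT (0.75 ± 0.10; adjusted p = 8.16e-05). Rgs2, which turns off the Gq protein that carries the signal of both receptors, was at 10.001 ± 1.108 CPM in G-line HOM and 35.1 ± 9.23 CPM in WT (-1.81 ± 0.27; adjusted p = 0.000639). Grk5 and Gna13 were also called higher in the other mutant groups than in WT, though these calls depend on the shared libraries: counted as A-line HOM, they left 0 pathway calls in any of those groups, and left out, they left 1 in A-line HOM and 0 in the heterozygotes. The log2 fold change of Grk5 was 1.33 in A-line HOM, 0.87 in G-line HET and 1.31 in A-line HET, and that of Gna13 was 0.60 in A-line HOM, 0.37 in G-line HET and 0.50 in A-line HET. These comparisons share the WT libraries. Rgs5, a regulator of the same family that is also on the pericyte list, was lower in G-line HOM, at 511 ± 78.1 CPM against 721 ± 35.2 CPM in WT (-0.50 ± 0.12; adjusted p = 0.00840).

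Of 26 effector genes, 4 were higher and 2 lower in G-line HOM than in WT, where 26.4% of all genes were called. The protein kinase C genes that carry receptor signals did not all move one way. Prkca was at 63.5 ± 1.39 CPM in G-line HOM and 34.9 ± 1.26 CPM in WT (log2 fold change 0.86 ± 0.11; adjusted p = 7.57e-05). Prkcd was at 23.4 ± 5.95 CPM in G-line HOM and 11.2 ± 0.86 CPM in WT (1.07 ± 0.18; adjusted p = 0.000633). Prkce was lower, at 24.0 ± 2.75 CPM in G-line HOM and 35.4 ± 4.19 CPM in WT (-0.56 ± 0.12; adjusted p = 0.00236). Prkca was also called higher than in WT in G-line HET (0.41) and A-line HET (0.66), and Prkcd in G-line HET (0.72) and A-line HET (0.78). These calls in the heterozygotes were lost under both other treatments of the shared libraries. In the single A-line HOM library Prkca gave a log2 fold change of 0.71 against WT.

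Of 9 tested genes of ligand processing and clearance, 2 were higher and 1 lower in G-line HOM than in WT. Called genes made up 26.4% of all genes there. Mme, the neutral endopeptidase neprilysin that degrades endothelins and other peptides, was at 1.81 ± 1.36 CPM in G-line HOM and 18.9 ± 1.71 CPM in WT (log2 fold change -3.37 ± 0.55; adjusted p = 0.00162). Its level was 3.9995 CPM in A-line HOM, 6.58 ± 3.05 CPM in G-line HET and 6.67 ± 1.84 CPM in A-line HET, none of which passed the test against WT (adjusted p = 0.169 for A-line HOM, 0.0965 for G-line HET and 0.111 for A-line HET). Pcsk5, a protease of the furin family, was at 10.8 ± 2.93 CPM in G-line HOM and 5.11 ± 1.13 CPM in WT (1.08 ± 0.24; adjusted p = 0.00386). Mmp2, a matrix protease made largely by fibroblasts, was at 131 ± 23.9 CPM in G-line HOM and 57.3 ± 17.4 CPM in WT (1.19 ± 0.28; adjusted p = 0.0102), beside the higher fibroblast markers given above. Furin itself was at 36.6 ± 9.47 CPM in G-line HOM and 38.3 ± 1.88 CPM in WT (-0.06 ± 0.18; adjusted p = 0.843).

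Of 14 genes of transcription factors known to act on Edn1, 2 were higher and 1 lower in G-line HOM than in WT. Over all genes, 26.4% were called in this comparison, so nothing is read from the count of this list. Hif1a, of the hypoxia-inducible factor, was at 176 ± 8.28 CPM in G-line HOM and 127 ± 10.8 CPM in WT (log2 fold change 0.47 ± 0.13; adjusted p = 0.0120). Jun, of AP-1, was at 24.0 ± 2.23 CPM in G-line HOM and 15.9 ± 2.57 CPM in WT (0.59 ± 0.17; adjusted p = 0.0188). Ppara, of a lipid-sensing nuclear receptor, was at 78.8 ± 4.46 CPM in G-line HOM and 100.5 ± 7.09 CPM in WT (-0.35 ± 0.09; adjusted p = 0.0108). The single A-line HOM library had 61.0 CPM of Jun, against 15.9 ± 2.57 CPM in WT (log2 fold change 1.94). Fos, also of AP-1, stood at 24.8 CPM in that library and 1.84 ± 1.21 CPM in WT (log2 fold change 3.74). The part of Jun and Fos in the Edn1 values was not tested. Gata4, of the cardiac GATA factor, was at 70.6 ± 12.1 CPM in G-line HOM and 62.0 ± 4.38 CPM in WT (0.19 ± 0.11; adjusted p = 0.251).

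Against G-line HET, 6 of the 64 pathway genes were higher and 6 lower in G-line HOM, where 14.6% of all genes were called. Hif1a rose in this comparison too (176 ± 8.28 CPM in G-line HOM and 106 ± 9.56 CPM in G-line HET; log2 fold change 0.73 ± 0.13; adjusted p = 0.00291), and Rgs2 fell (10.001 ± 1.108 against 30.488 ± 1.4996 CPM; -1.61 ± 0.27; adjusted p = 0.00464). Against WT, 4 of the 64 were called in A-line HOM and 4 in G-line HET, each of them higher, while A-line HET had 5 higher and 2 lower. Over all genes the shares called were 4.68% in A-line HOM, 7.52% in G-line HET and 7.96% in A-line HET. In A-line HET, Gna12, the gene of the alpha subunit most like that of Gna13, was lower (28.9 ± 4.26 against 49.5 ± 5.99 CPM in WT; -0.78 ± 0.19; adjusted p = 0.0274). Src, a tyrosine kinase downstream of the receptors, was higher there (6.93 ± 1.96 against 3.60 ± 1.09 CPM in WT; 0.94 ± 0.25; adjusted p = 0.0324). Rgs2 was also called lower in A-line HET than in WT (-1.02, edgeR adjusted p = 0.0403). These A-line HET calls were lost under both other treatments of the shared libraries. Neither Gna12 nor Src was particular to A-line HET. In G-line HOM against WT, Gna12 gave -1.01 (edgeR adjusted p = 0.00199) and Src 0.85 (edgeR adjusted p = 0.0196).

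**Figure D5:**
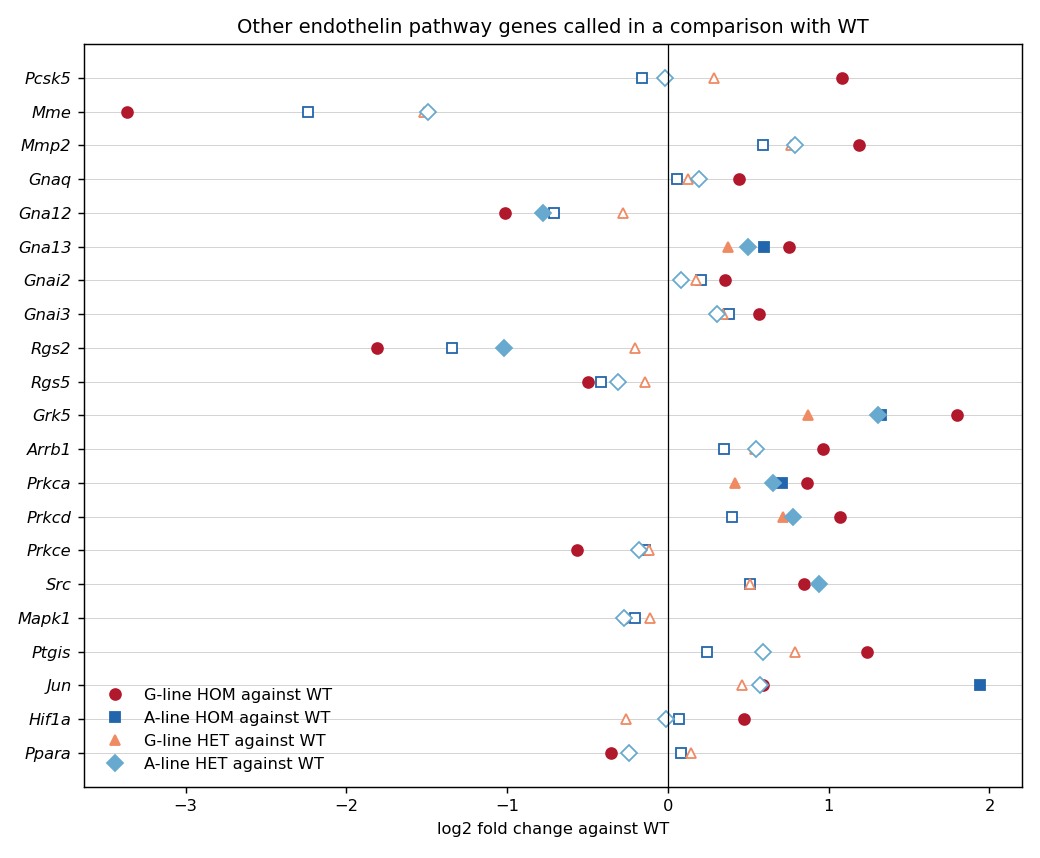
Log2 fold change against WT of the 21 further pathway genes called in at least 1 comparison with WT, ordered by list from processing at the top to transcription factors at the bottom; filled symbols have an edgeR adjusted p under 0.05 and open ones do not. The 4 comparisons share the WT libraries; Mme is lowest (-3.37 in G-line HOM) and Jun in A-line HOM highest (1.94).

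Among 12324 genes with a mean of at least 1 CPM, the genes whose levels ran most like each member over the 13 libraries were taken by Pearson's r of log2(CPM + 0.5). The libraries share groups and scaling, so these values are a description. For Edn1 they were Ro60 (r = 0.927, Spearman 0.885) and Selenof (r = 0.925, Spearman 0.912), both highest in G-line HOM: Ro60 averaged 80.8 CPM in G-line HOM and 54.1 CPM in WT. For Edn3 they were Hspb6, which encodes a small heat shock protein of muscle (r = 0.945, Spearman 0.824), and Dnajc11 (r = 0.898, Spearman 0.824). Within groups r was 0.727 for Hspb6 and 0.07 for Dnajc11. Hspb6 averaged 131 CPM in G-line HOM, 147 CPM in A-line HOM, 211 CPM in G-line HET, 134 CPM in A-line HET and 180 CPM in WT, with G-line HET and WT first as for Edn3. For Ednra they were Fam89b (r = 0.942, Spearman 0.912) and Rab35 (r = 0.892, Spearman 0.863), and for Ednrb Tifa (r = 0.878, Spearman 0.819) and Swap70 (r = 0.875, Spearman 0.901). For Ece1, Tmem255b (r = 0.867, Spearman 0.654) and Elmo2 (r = 0.864, Spearman 0.604) ran alike mainly through the 2 libraries farthest from the median, without which r was 0.495 and 0.502.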

How the data were processed

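RNA of 13 distinct left ventricle libraries was analysed; 15 were labelled and 2 appeared under both WT and A-line HOM. The authors deposited whole-number raw counts per gene symbol, used as deposited. Per the submitters' processing notes, reads passed through bcl2fastq 2.20.0.422, Trimmomatic 0.39 and STAR 2.7.4a with build GRCm39; the sources used here name no counting program, annotation or strand setting, so reads of antisense partners cannot be told apart. Groups came from sample titles.

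Genes were kept at 0.422 CPM (10 counts in the median library) in at least 3 libraries and at least 15 counts in total. One edgeR 4.0.16 quasi-likelihood model (R 4.3.3) with TMM factors and a mean per group was fitted over the 13 libraries (8 residual degrees of freedom), in place of the 15 planned. Tests were two-sided, Benjamini-Hochberg adjusted over 17588 genes with a threshold of 0.05; the SE is the log2 fold change over the square root of F. The procedure was checked on simulated data. Intervals of log2 fold changes are from the SE and carry the spread between libraries; Clopper-Pearson intervals and the floor of 3 counts cover counting error only.

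The members, lists, motifs and tests were chosen with earlier results of these data known. Named pathway genes were up to 3 per list and comparison by adjusted p. Furin, Gata4 and Fos, not called, were added after their values were seen, as was Mme in the groups other than G-line HOM. Similar genes were the 2 with the highest r, leaving out predicted and clone-named symbols. Promoters were matched by symbol to a RefSeq table of GRCm38.p6 (5 of 5). Alternatives were DESeq2 1.42.0, its size factors (RLE), no filter, at least 1 CPM in 3 libraries, only the compared groups, a replicate block, other treatments of the shared libraries, omission of libraries with atrial transcripts or shifted clock genes, and leaving out each library.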

Additional observations from a re-analysis of the deposited data

How the results depend on the processing

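Over 27 tested values of the 5 genes and 400 alternative values of them, 325 kept call and direction, 27 lost a call, 5 gained one, 0 reversed a call, and 43 uncalled values changed sign. Edn1 in G-line HOM kept its call against WT and against G-line HET under all alternatives run. The cause of the changes below was not tested.

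With the shared libraries counted as A-line HOM, the log2 fold change of Edn3 was -3.37 in G-line HOM (adjusted p = 0.0697) and -1.11 in A-line HOM (0.986) against WT, that of Ednra in G-line HET against WT 0.29 (0.354), and that of Ednrb in G-line HOM against G-line HET 0.44 (0.0605). With them left out, Edn3 in A-line HOM had an adjusted p of 0.0611 (fitted log2 value -8.17, no bound), Ednra was 0.28 in G-line HET against WT (0.349) and -0.32 in G-line HOM against G-line HET (0.0524). Ednra in G-line HET against WT was also not called with no filter (0.35; 0.0578), with the replicate block (0.33; 0.0582) or without the atrial libraries (0.31; 0.0727). Ednrb in G-line HOM against G-line HET was not called without the atrial libraries (0.34; 0.120) or those with shifted clock genes (0.34; 0.119). The replicate numbers did not pair the libraries: correlations of same-numbered pairs ran from -0.362 to 0.23, 4 of 18 over 0.1. Beyond Ednra in G-line HET, the replicate block changed no call of the 5 genes.

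Leaving out 1 library gave 1.20 to 1.45 for Edn1 and -3.96 to -2.54 for Edn3 in G-line HOM against WT, -8.05 to -7.60 (fitted) for Edn3 in A-line HOM against WT, 0.31 to 0.35 for Ednra in G-line HET against WT, and in G-line HOM against G-line HET 1.02 to 1.39 for Edn1, -0.35 to -0.29 for Ednra and 0.34 to 0.57 for Ednrb.

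Of the 5 genes, 1 in place of 2 was called in G-line HOM against WT with the shared libraries as A-line HOM. In A-line HOM against WT 0 in place of 1 was called with them as A-line HOM or left out. In G-line HET against WT 0 in place of 1 was called with no filter, the replicate block, either treatment of the shared libraries, without the atrial libraries or without any 1 library, and 2 with only the compared groups, where Ednrb had an adjusted p of 0.0401. In G-line HOM against G-line HET leaving out 1 library left 1 to 3 called. In A-line HOM against G-line HOM 1 in place of 0, Edn1, was called by DESeq2, with no filter (0.0218), with the shared libraries as A-line HOM (0.0123) and without G-line HOM replicate 3; leaving out 1 library gave 0 to 1.

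Pathway calls with the shared libraries as A-line HOM were 7 in place of 21 (G-line HOM), 0 in place of 4 (A-line HOM), 0 in place of 4 (G-line HET) and 0 in place of 7 (A-line HET) against WT, 5 in place of 12 in G-line HOM against G-line HET and 12 in place of 0 in A-line HOM against G-line HOM. With them left out they were 1 in A-line HOM, 0 in G-line HET and 0 in A-line HET. Without the atrial libraries there were 6 in G-line HOM against G-line HET and 8 in G-line HET against WT. G-line HET against WT gave 8 with DESeq2, 10 with only the compared groups and 1 with the replicate block. Only the compared groups gave 7 in A-line HOM against WT. DESeq2, RLE and no filter each gave 1 in A-line HOM against G-line HOM, and DESeq2 1 in A-line HET against G-line HET. Low counts limit Edn3: a library of A-line HET would hold only 16.0 to 23.8 counts at the WT level.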

Other observations

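The genes beside Edn3 were looked at after its fall in G-line HOM and A-line HOM had been seen. In the RefSeq order of GRCm38.p6 the 3 protein-coding genes before it are Atp5e, Prelid3b and Zfp831, and the 3 after it are Gm14444, LOC115489542 and Gm14393. Of these, 5 passed the filter. Of the 5, Gm14393 was called in G-line HOM against WT, with a log2 fold change of -0.58 (edgeR adjusted p = 0.00721). Over all genes, 26.4% were called in that comparison, and nothing is read from this count. Zfp831, the nearest gene before Edn3, gave -0.40 (adjusted p = 0.683) at a mean of 0.459 CPM, and Prelid3b gave 0.11 (adjusted p = 0.432) at 48.1 CPM. LOC115489542 gave -1.20 (adjusted p = 0.115) at 0.530 CPM, and Atp5e gave -0.25 (adjusted p = 0.113). In A-line HOM against WT the smallest adjusted p of the 5 was 0.114, for Gm14393 (log2 fold change -0.62), and the largest change was that of Zfp831 (-1.83; adjusted p = 0.429).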
